A study of Mus musculus with 6 samples.

Results

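Amino acid and peptide transporters of the solute carrier families SLC1, SLC3, SLC6, SLC7, SLC15, SLC36, SLC38 and SLC43 were examined in primary hepatocytes of alcohol-fed mice. The members were all genes of the deposited expression table whose symbol begins with Slc, one of these family numbers and the letter a followed by a number, which gave 55 of 25718 genes. RNA-seq of poly(A) RNA was compared between 3 libraries of WT mice and 3 libraries of S100a16KO+/- mice, which carry 1 deleted S100a16 allele. The deletion was made with EIIa-Cre, which is active in the early embryo, so it is present in every tissue and not in hepatocytes alone, and mice lacking both alleles were reported as lethal in the methods of the study. The sample labels name the second genotype a knockdown, whereas the description of the series and the methods name heterozygous knockout mice. The methods give a largely, not fully, C57BL/6 background for the S100a16KO+/- mice and do not name the strain of the WT mice. The mice of both genotypes were male and 8 to 10 weeks of age. All mice received a control liquid diet for 5 days and then, over 10 days, liquid diet with 5% ethanol by volume. An ethanol gavage of 5 g/kg followed, and the mice were sacrificed 9 h later. Libraries without alcohol were not analysed here, so each difference below is between genotypes under alcohol. Whether the hepatocytes were cultured before RNA extraction is not given in the sources used here.

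Amino acids cross membranes through carriers that differ in their substrates and in what drives them. SLC1, SLC6 and most plasma membrane SLC38 proteins use the sodium gradient to accumulate amino acids, SLC15 and SLC36 proteins use protons, and SLC7 proteins either move cationic amino acids alone or exchange amino acids as light chains bound to an SLC3 heavy chain. The liver takes up glutamine, alanine, arginine and other amino acids from portal blood for urea synthesis, gluconeogenesis and protein synthesis. Several carriers are known targets of ATF4, the transcription factor that is translated when eIF2alpha is phosphorylated during amino acid shortage or endoplasmic reticulum stress.

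The libraries held 67658095 to 71807834 counts each. The counts are whole-number estimates. How they were made is not stated, and other values also occur, but low counts pile up at 4: in WT replicate 1, 936 genes had 4 counts, 561 had 3 and 259 had 5. A sequenced fragment was therefore taken to be worth about 4 counts, and 12 counts, or 3 fragments, as the limit of what a gene at 0 could hold. Each number of fragments below rests on this reading. S100a16 itself had 1001, 1056 and 1107 counts in WT and 433, 390 and 366 in S100a16KO+/- cells, so its level matched the labels (log2 fold change -1.40, SE 0.11, adjusted p = 4.14e-07). Levels of one gene between libraries are given as CPM, counts scaled to the size and composition of each library, with the SD over 3 libraries. Levels of different genes are set side by side only as FPKM, which the authors also scaled for transcript length. Differences were tested with edgeR's quasi-likelihood test, two-sided, and a gene was called at an adjusted p under 0.05 after Benjamini-Hochberg adjustment over all 15957 tested genes. A positive log2 fold change means a higher level in S100a16KO+/- cells. That the 3 libraries of a genotype came from separate mice is not stated in the labels, so the p values measure the spread between these libraries.

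Marker genes were used to check the labelled cell type. Of all tested genes, 11.6% were called higher and 11.2% lower, and the counts of called markers below are to be read beside these shares. Hepatocyte markers, of which Alb is the most abundant, summed to 112332–124071 CPM in WT and 110210–122262 CPM in S100a16KO+/- cells, with 1 of 7 called higher (Fgb) and 2 lower (Cyp2e1 and Ttr). Sinusoidal endothelial markers summed to 282–297 and 407–421 CPM, with 9 of 10 called higher and Lyve1 called lower, and stellate cell markers to 59.3–65.2 and 99.97–113.5 CPM, with 5 of 10 higher. Macrophage and Kupffer cell markers summed to 176–204.98 and 208–227 CPM with 4 of 12 higher (C1qb, Cd68, Lyz2 and Marco) and none lower. Their median log2 fold change was 0.25. Marco had the largest, at 0.74 (SE 0.14, adjusted p = 0.00118), and Clec4f, which marks Kupffer cells, was at 0.04 (SE 0.08, adjusted p = 0.795). Erythroid markers fell in 5 of 5 genes, from 214.8–252.2 to 23.4–26.3 CPM. Cholangiocyte markers summed to 7.73–10.5 and 10.5–11.3 CPM (1 higher and 1 lower of 5 tested), neutrophil markers to 3.35–5.14 and 5.50–6.64 CPM (none of 4 called, 1 at an unadjusted p under 0.05 with edgeR and with DESeq2 and 2 with limma), and T and B cell markers to 3.86–3.99 and 2.86–3.96 CPM (1 of 8 lower). Cftr and Ly6g were at or under 7 counts in every library. The part of these other cells in the transporter results was not tested, and in bulk RNA fewer cells of a type and less RNA per cell cannot be told apart.

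A larger share of the transporters was called than of all tested genes, and most called transporters were higher in S100a16KO+/- cells. Of the 55 members, 40 passed the filter on low counts and 15 did not, 11 of them at or under 12 counts in every library and the other 4 reaching at most 23 counts. Among the 40 tested, 18 were called (45%), against 22.8% of all tested genes. There were 12 called higher in S100a16KO+/- cells (30%, against 11.6% of all tested genes) and 6 called lower (15%, against 11.2%). The median log2 fold change of the 40 was 0.22, and that of all tested genes was 0.01. Slc15a2 and Slc6a4, both among the 6 called lower, reached the filter's minimum of 10 counts only in WT libraries. They could enter the test only by being high there, so the share called lower, and its part in the 45%, is not read as an excess. These shares are descriptions without a test of the group. The change was small for some, and 8 of the 18 called genes differed by less than 1.5-fold. The study's cut-offs, an unadjusted p under 0.05 with a fold change of at least 2, were used there with DESeq2 and are applied here to edgeR p values. The calls are therefore not those of the study. With these cut-offs, 5 members passed, against 4.52% of tested genes. Of these, 2 were higher (Slc3a1 and Slc6a21, against 2.90% of tested genes) and 3 were lower (Slc15a2, Slc1a4 and Slc6a4, against 1.62%). The same limit holds for Slc15a2 and Slc6a4 here.

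**Figure D1:**
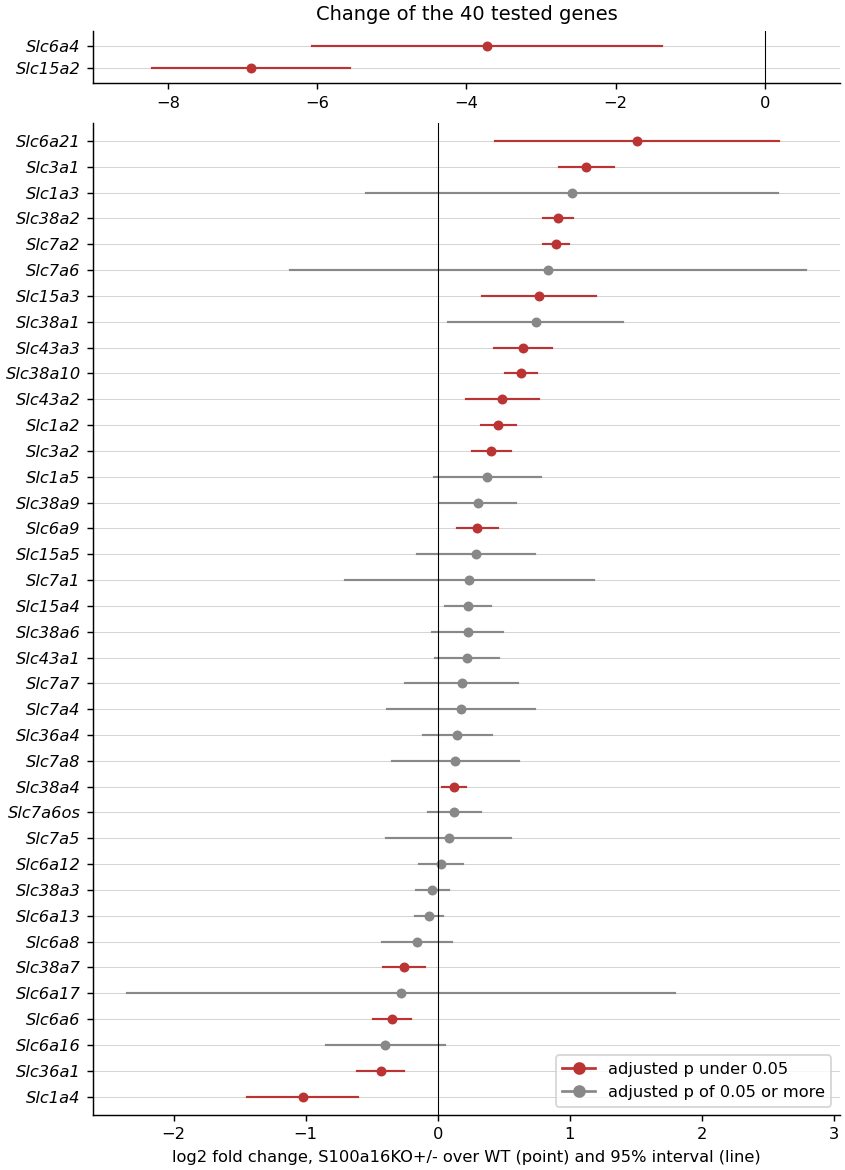
Log2 fold change of each of the 40 tested transporter genes, S100a16KO+/- over WT (points), with the 95% interval of the fit (lines). Red marks the 18 genes with an adjusted p under 0.05. Slc15a2 and Slc6a4, both near 0 counts in S100a16KO+/- libraries, have their own wider axis at the top, and Slc6a21 and Slc3a1 lie farthest to the right among the called genes.

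Promoter sequence was available from RefSeq (GRCm38.p6, the build that mm10 names) for 42 of the 55 genes, as 300 bases from 250 before to 50 after each annotated start. The 100 bases before the start are shown for the 3 genes with promoter sequence that led their groups: Slc38a2 and Slc3a1, which rose, and Slc15a2, which was nearly absent from S100a16KO+/- cells. They read 5′ to 3′ on the strand of the gene, and their last base lies directly before the start. Slc38a2 lies at chr15:96699729-96699828 on the minus strand, Slc3a1 at chr17:85028247-85028346 on the plus strand and Slc15a2 at chr16:36784963-36785062 on the minus strand.
Slc38a2: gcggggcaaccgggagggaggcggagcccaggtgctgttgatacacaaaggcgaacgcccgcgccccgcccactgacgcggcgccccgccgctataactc
Slc3a1: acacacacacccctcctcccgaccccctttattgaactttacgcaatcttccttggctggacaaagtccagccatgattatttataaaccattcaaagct
Slc15a2: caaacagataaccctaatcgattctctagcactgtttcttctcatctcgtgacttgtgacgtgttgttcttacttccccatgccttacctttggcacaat
Within the 300 bases, none of these 3 promoters held the letters TGATGNAA on either strand. These letters are the core of the C/EBP-ATF response element through which ATF4 and C/EBP proteins can bind. Sequence outside this window, introns included, was not searched, so the genes may hold the element elsewhere.

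The element's core occurred in 1304 of 32851 mouse promoters in the table (3.97%) and in 6 of the 61 promoters of the members, which belong to 5 genes. These were Slc7a11, Slc1a4, Slc6a21, Slc7a7 and Slc15a5. The stretches around the match are shown for Slc7a11, a known ATF4 target that was near 0 here, and for Slc1a4 and Slc6a21, which were called in opposite directions. Capitals mark the match, which is read on either strand. The stretch of Slc7a11 is chr3:50443649-50443683 (minus strand, 70 to 36 bases before the start), that of Slc1a4 is chr11:20332710-20332739 (minus strand, from 26 bases before the start to base 4 of the transcript) and that of Slc6a21 is chr7:45282828-45282857 (plus strand, 45 to 16 bases before a RefSeq start). For Slc6a21 that start lies inside the gene as the expression table gives it, so the stretch is within the gene and not before it there.
Slc7a11: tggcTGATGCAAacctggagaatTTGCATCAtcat
Slc1a4: agcctccagcgtgcctcctgcgTTGCATCA
Slc6a21: cagcctagaggtgagaaTTACATCAagtgg
Other motifs were searched after the results were known. The cAMP response element TGACGTCA occurred in 1.79% of all promoters and in 1 member, Slc38a6, and the endoplasmic reticulum stress response element, CCAAT and CCACG separated by 9 bases, in 0.119% of all promoters and in no member. A match is a description of letters in this window and shows nothing about binding.

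The level of amino acid transport mRNA was concentrated in few genes. In FPKM, 20 members reached a mean of at least 1 over the 6 libraries and 8 reached 10, and the 3 most abundant, Slc38a3, Slc38a4 and Slc6a13, held 73.5–80.1% of the summed FPKM of all members. The 10 most abundant held 94.8–95.3%. The sum over members was 773–819 FPKM in WT and 855–892 FPKM in S100a16KO+/- libraries. Slc38a3 (SNAT3), the system N carrier of glutamine, histidine and asparagine, was the highest in both genotypes at 291 ± 10.01 and 284 ± 7.38 FPKM (SD, n = 3). Slc38a4 (SNAT4), a sodium-coupled carrier of neutral amino acids, followed at 247 ± 12.2 and 271 ± 17.8 FPKM, and its S100a16KO+/- libraries overlapped those of Slc38a3. Slc6a13 (GAT2), which takes up GABA and taurine, stood at 96.1 ± 3.08 and 92.3 ± 1.10 FPKM. Below these, the order was Slc7a2, Slc6a12, Slc38a2, Slc3a2, Slc38a10, Slc6a6, Slc6a9 and Slc3a1 in WT, in which only Slc38a10 and Slc6a6 overlapped as neighbours. In S100a16KO+/- cells Slc38a2 stood above Slc6a12 and Slc3a1 above Slc6a9 and Slc6a6, while Slc3a2, Slc38a10 and Slc3a1 overlapped as neighbours.

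**Figure D2:**
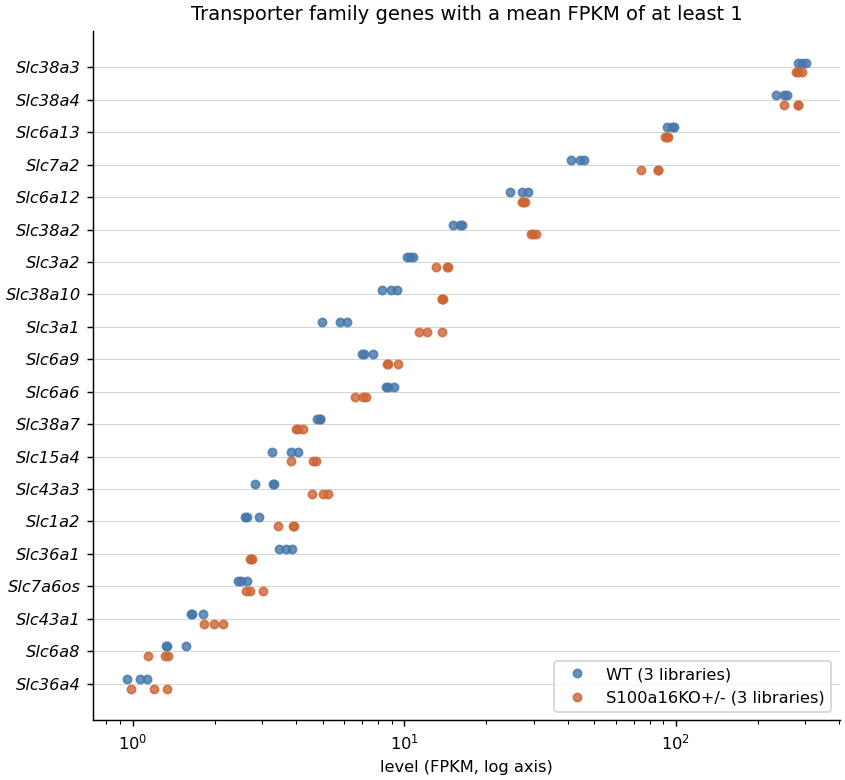
Level of the 20 transporter genes with a mean of at least 1 FPKM (log axis), with 1 point per library, 3 for WT and 3 for S100a16KO+/-. Slc38a3, Slc38a4 and Slc6a13 stand highest, and the genotypes separate clearly for Slc7a2, Slc38a2, Slc38a10 and Slc3a1.

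The cationic amino acid carrier of hepatocytes rose. Slc7a2 (CAT-2, ENSMUSG00000031596, chr8:40862396-40922308, plus strand), which imports arginine, lysine and ornithine, had 441, 454 and 447 CPM in the 3 WT libraries and 857, 803 and 839 CPM in the S100a16KO+/- libraries. All S100a16KO+/- libraries lay above all WT libraries, with means of 448 ± 6.48 and 833 ± 27.6 CPM (SD, n = 3). This was a 1.86-fold difference (log2 fold change 0.90, SE 0.05, 95% interval 0.80 to 0.996, adjusted p = 5.2e-09). Slc7a1, the widely expressed cationic carrier CAT-1, had only 20, 54 and 58 counts in WT and 68, 47 and 39 in S100a16KO+/- libraries, and was not called (log2 fold change 0.24, interval -0.70 to 1.18, adjusted p = 0.764). Per length, Slc7a2 was 670 to 1918 times Slc7a1 in WT and 1118 to 1962 times in S100a16KO+/- libraries. Slc7a3, the cationic carrier CAT-3, stood at 5, 5 and 0 counts in WT and at 0 in every S100a16KO+/- library, and was not tested.

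Among the SLC38 carriers, 3 of 8 tested genes rose and 1 fell, where 11.6% of all tested genes were called higher and 11.2% lower. Slc38a2 (SNAT2, ENSMUSG00000022462, chr15:96687392-96699730, minus strand), the adaptive system A carrier of alanine, glutamine and serine, had 158, 154 and 159 CPM in WT and 284, 310 and 290 CPM in S100a16KO+/- libraries. The groups did not overlap, and the difference was 1.88-fold (log2 fold change 0.91, SE 0.05, interval 0.80 to 1.02, adjusted p = 1.47e-08). Slc38a10 (ENSMUSG00000061306, chr11:120103960-120151346, minus strand), a less studied relative, rose from 62.8, 65.5 and 63.0 to 96.4, 104 and 95.7 CPM, again without overlap (log2 fold change 0.63, SE 0.06, adjusted p = 1.57e-06). Slc38a4 (chr15:96994820-97055956, minus strand) moved much less, from 1170, 1183 and 1176 to 1309, 1258 and 1286 CPM. Its log2 fold change was 0.13 (SE 0.04, adjusted p = 0.0459), and this call was lost on leaving out any one library other than S100a16KO+/- replicate 2, with an adjusted p from 0.1002 to 0.192.

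Slc38a7 (SNAT7, chr8:95835920-95853539, minus strand), which exports glutamine from lysosomes, was the SLC38 gene called lower. It fell from 23.4, 22.0 and 22.3 to 18.4, 19.6 and 18.8 CPM, with no overlap (log2 fold change -0.25, SE 0.07, adjusted p = 0.0244). The call was lost without WT replicate 1 or 3 or without S100a16KO+/- replicate 1 or 3, with an adjusted p from 0.0618 to 0.0818. Slc38a3 was not called, and its interval was narrow (log2 fold change -0.04, interval -0.17 to 0.08, adjusted p = 0.684). Slc38a1 (SNAT1), 44.5 kb from Slc38a2 on chromosome 15, was low at 0.795 ± 0.101 and 1.33 ± 0.397 CPM, and its log2 fold change of 0.74 was not called (adjusted p = 0.105).

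Both heavy chains rose (against 11.6% of all tested genes called higher), while none of 4 tested light chains was called (against 22.8%). The light chains were low, and a rise of the size seen for Slc3a2 was not excluded for them, as given below. Slc7a9, a light chain gene that the rule would include, was not in the deposited expression table, so its level is not known here. Slc3a1 (rBAT, ENSMUSG00000024131, chr17:85028376-85064236, plus strand), the heavy chain of renal cystine uptake whose loss causes cystinuria, had 15.6, 15.2 and 12.4 CPM in WT and 34.3, 30.4 and 29.6 CPM in S100a16KO+/- libraries. It showed the largest rise of any member above 1 CPM, at 2.18-fold without overlap (log2 fold change 1.13, SE 0.10, interval 0.92 to 1.33, adjusted p = 9.69e-07). Slc3a1 overlaps Prepl on the opposite strand, which stood at 14.7 and 15.9 CPM and was not called (log2 fold change 0.11, adjusted p = 0.561). The libraries were made with a protocol that marks strand, but whether counting used it is not given in the sources used here.

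Slc3a2 (4F2hc or CD98, ENSMUSG00000010095, chr19:8706882-8723369, minus strand), the heavy chain of the large neutral amino acid exchangers, had 42.7, 41.1 and 41.0 CPM in WT and 55.8, 59.9 and 49.6 CPM in S100a16KO+/- libraries (log2 fold change 0.40, SE 0.07, adjusted p = 0.0006). The smallest S100a16KO+/- value lay above the largest WT value. Of the 7 light chain genes in the table, 4 were tested and none was called, nor did any have an unadjusted p under 0.05 with edgeR, DESeq2 or limma. Slc7a5 (LAT1), the light chain that carries leucine and other large neutral amino acids, had 148, 136 and 164 counts in WT and 150, 187 and 131 in S100a16KO+/- libraries (log2 fold change 0.08, interval -0.39 to 0.56, adjusted p = 0.840). Slc7a11 (xCT), the cystine and glutamate exchanger, had 0, 10 and 0 counts and 0, 7 and 12 counts, and was not tested. Per length, Slc3a2 was 5.92 to 6.09 times the summed 6 light chains that can pair with it in WT, and 6.27 to 7.83 times in S100a16KO+/- libraries. The ratio of Slc3a1 to Slc3a2 in FPKM was 0.470 to 0.574 in WT and 0.788 to 0.955 in S100a16KO+/- libraries, which did not overlap.

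**Figure D3:**
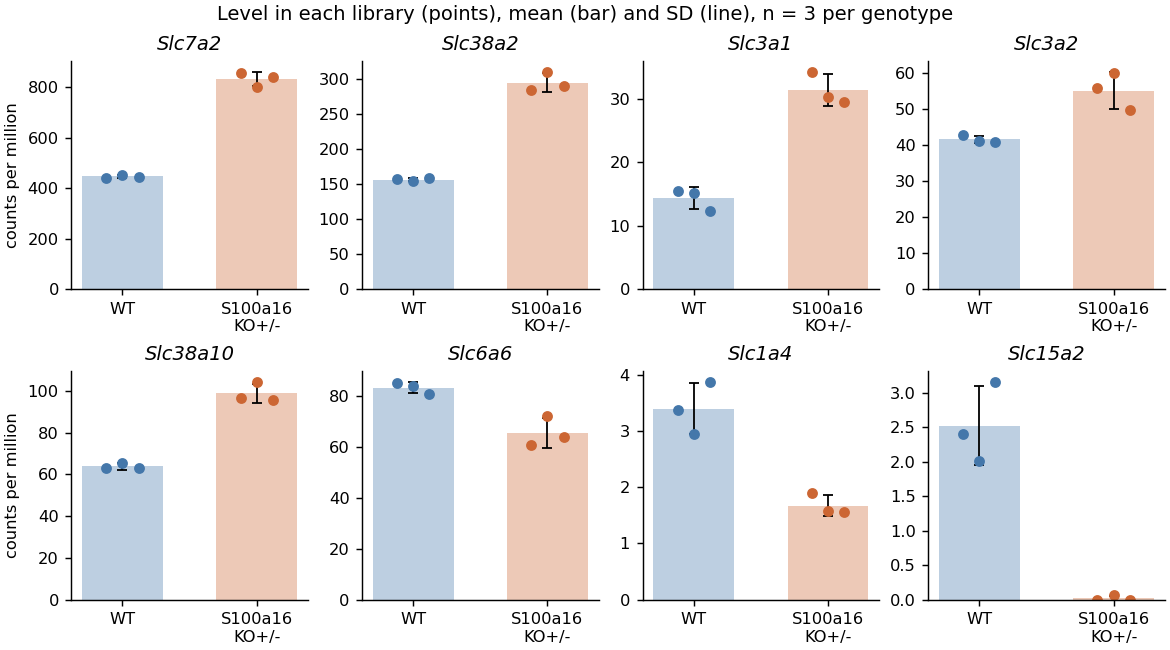
CPM of 8 transporter genes in each library (points), with the mean (bar) and SD (line) of 3 libraries per genotype. Slc7a2, Slc38a2, Slc3a1, Slc3a2 and Slc38a10 were higher and Slc6a6, Slc1a4 and Slc15a2 lower in every S100a16KO+/- library than in any WT library.

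Among the SLC1 carriers, Slc1a2 was called higher and Slc1a4 lower. Slc1a2 (GLT-1, ENSMUSG00000005089, chr2:102658659-102790784, plus strand), which takes up glutamate and is concentrated in hepatocytes around the central vein, had 40.7, 36.9 and 42.2 CPM in WT and 56.5, 53.3 and 54.8 CPM in S100a16KO+/- libraries. The groups did not overlap (log2 fold change 0.46, SE 0.06, interval 0.32 to 0.59, adjusted p = 9.07e-05). Beside this rise, 5 of 9 pericentral genes were called lower (against 11.2% of all tested genes) and 1 higher (against 11.6%), their median change being -0.32 on the log2 scale, and 5 of 8 periportal genes were called higher and 1 lower, with a median of 0.22. The part of zonation in the transporter results was not tested. Slc1a4 (ASCT1, ENSMUSG00000020142, chr11:20302180-20332713, minus strand), which exchanges alanine, serine and cysteine, fell from 230, 208 and 265 counts to 131, 101 and 112 counts. That is 3.40 ± 0.459 and 1.67 ± 0.189 CPM without overlap, or 2.03-fold lower in S100a16KO+/- cells (log2 fold change -1.02, SE 0.20, interval -1.44 to -0.60, adjusted p = 0.00153). Slc1a5 (ASCT2), the glutamine exchanger, had 2.77 ± 0.543 and 3.60 ± 0.366 CPM and was not called (log2 fold change 0.38, interval -0.03 to 0.78, adjusted p = 0.182).

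Of the 4 tested SLC6 carriers of osmolytes, GABA and creatine, only Slc6a6, a taurine carrier, was called, where 22.8% of all tested genes were called. Slc6a13, which also takes up taurine and was more abundant in FPKM, was not. Slc6a6 (TauT, ENSMUSG00000030096, chr6:91684053-91759066, plus strand) fell from 85.3, 84.0 and 81.0 to 60.9, 72.2 and 63.9 CPM. All S100a16KO+/- values lay below all WT values (log2 fold change -0.35, SE 0.07, interval -0.49 to -0.20, adjusted p = 0.00151). Slc6a13 and Slc6a12 (BGT1), the betaine and GABA carrier, lie 5.3 kb apart on chromosome 6 and neither was called. Their log2 fold changes were -0.06 (interval -0.17 to 0.04, adjusted p = 0.414) and 0.03 (interval -0.14 to 0.19, adjusted p = 0.854).

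Slc6a9 (GlyT1, chr4:117834506-117875198, plus strand), the glycine carrier, rose from 42.3, 42.6 and 40.3 to 48.9, 57.6 and 47.7 CPM, with no overlap (log2 fold change 0.30, SE 0.07, adjusted p = 0.00739). This gene is also known from erythroid cells, whose markers were lower in S100a16KO+/- libraries as given above. Slc6a4 (SERT, chr11:76998603-77032340, plus strand), the serotonin transporter, had 26, 15 and 16 counts in WT and 0, 0 and 4 in S100a16KO+/- libraries. At 4 counts per fragment, these are about 14 fragments against 1, a ratio of 13.9 (95% exact interval 2.11 to 588, counting error only). It was called (adjusted p = 0.0238), but not without WT replicate 1, 2 or 3 or S100a16KO+/- replicate 1 or 2, where the adjusted p was 0.0679 to 0.113. Slc6a21 (chr7:45277513-45288998, plus strand), a family member of uncertain substrate, had 21, 32 and 7 counts in WT and 60, 47 and 63 counts in S100a16KO+/- libraries (log2 fold change 1.51, SE 0.50, adjusted p = 0.0438). That call held without WT replicate 2 and was lost on leaving out any other library, with an adjusted p from 0.0648 to 0.122.

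The peptide carriers held the strongest fall of all members. Slc15a2 (PEPT2, ENSMUSG00000022899, chr16:36750177-36784962, minus strand), the high-affinity proton-coupled carrier of di- and tripeptides, had 164, 142 and 216 counts in WT and 0, 4 and 0 counts in S100a16KO+/- libraries. This corresponds to 2.40, 2.02 and 3.16 CPM in WT and to 0.0622 CPM in the only S100a16KO+/- library with any count. Summed over libraries and at 4 counts per fragment, the counts stand for about 130 fragments in WT and 1 in S100a16KO+/-, a ratio of 129 with an exact 95% interval of 22.8 to 5136 that covers counting error only. The gene was called lower (adjusted p = 2.24e-06), also without any one library. Its fitted log2 fold change is not given as a size, because it depends on the prior count used for libraries at 0.

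Several genes around Slc15a2 were measured. Within 250 kb there were 14, of which 8 were tested and 6 were too low to test. Of the 8, 3 were called higher and none lower, where 11.6% and 11.2% of all tested genes were called, and none was lower at an unadjusted p under 0.05 with edgeR, DESeq2 or limma. Fbxo40, named after its values were seen, had 19, 10 and 18 counts in WT and 13, 0 and 0 in S100a16KO+/- libraries and was not called (log2 fold change -1.83, SE 1.13, adjusted p = 0.290). The genes called higher were Golgb1, a Golgi matrix protein gene (log2 fold change 0.97, SE 0.06, adjusted p = 4.46e-08), Gm49599, which begins at the same base and strand as Golgb1, and Hcls1, a gene of blood cells (log2 fold change 0.67, adjusted p = 0.0279). Gm8425, on the opposite strand within Slc15a2, had at most 3 counts in any library.

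Of the other peptide carriers, Slc15a3 (PHT2, chr19:10839727-10859362, plus strand), a lysosomal carrier of histidine and peptides best known from macrophages, rose from 180, 219 and 123 to 325, 266 and 291 counts. The log2 fold change was 0.77 (SE 0.20, interval 0.34 to 1.2, adjusted p = 0.0125), and the call was lost without WT replicate 3 (adjusted p = 0.0571) and without S100a16KO+/- replicate 1 (adjusted p = 0.0559). Slc15a3 overlaps Tmem132a on the opposite strand, which was also called higher (0.797 and 1.51 CPM, log2 fold change 0.92, adjusted p = 0.0365). Slc15a4 (PHT1), its close relative, did not overlap between genotypes at 22.1 ± 1.56 and 26.0 ± 1.76 CPM, but was not called (log2 fold change 0.23, interval 0.06 to 0.41, adjusted p = 0.0537).

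The remaining called members were a lysosomal carrier that fell and carriers of SLC43 that rose. Slc36a1 (PAT1, chr11:55204350-55236330, plus strand), which moves small amino acids out of lysosomes with protons, fell from 24.3, 23.6 and 21.4 to 16.6, 18.3 and 16.5 CPM without overlap (log2 fold change -0.43, SE 0.08, adjusted p = 0.00162). Slc43a3 (chr2:84936579-84958509, plus strand), which transports purine nucleobases rather than amino acids, rose from 17.5, 15.9 and 13.9 to 22.3, 27.6 and 24.0 CPM (log2 fold change 0.65, SE 0.10, interval 0.43 to 0.87, adjusted p = 0.000317). Slc43a2 (LAT4, chr11:75531694-75577575, plus strand), a carrier of branched-chain amino acids and phenylalanine, rose from 5.45, 6.12 and 5.32 to 8.31, 8.43 and 6.98 CPM (log2 fold change 0.49, SE 0.13, adjusted p = 0.0129). Without WT replicate 3 or without S100a16KO+/- replicate 1 its adjusted p was 0.0556 and 0.0559. Slc43a1 (LAT3), 73 kb from Slc43a3, was not called (log2 fold change 0.22, interval -0.02 to 0.46, adjusted p = 0.194).

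The 22 tested members that were not called had log2 fold changes from -0.40 to 1.02. For 10 of them, the 95% interval lay within a 1.5-fold change in either direction, and for the other 12 it reached beyond that size, so a difference of 1.5-fold was not excluded. In CPM, 16 of 40 tested members were higher in every S100a16KO+/- library than in any WT library, against 19.2% of all tested genes. There were 6 lower in every library, against 18.6%, which makes 22 members without overlap (55%, against 37.9%). The 6 include Slc15a2 and Slc6a4, which entered the test only by being high in WT. Neither the 6 nor the 22 is therefore read as an excess. The 4 members that separated in this way without being called were Slc15a4, Slc38a1, Slc38a6 and Slc1a5, all higher. Slc7a6os, which meets the rule by its name alone, lies beside Slc7a6 on the opposite strand and is no transporter, was not called (log2 fold change 0.13, adjusted p = 0.389).

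The ATF4-responsive carriers were set beside other ATF4 target genes, since ATF4 is the common regulator named for them. Of all tested genes, 11.6% were called higher and 11.2% lower. Of the 9 carriers, 7 were tested, 3 were higher (Slc38a2, Slc3a2 and Slc6a9), 1 was lower (Slc1a4) and 3 were not called (Slc1a5, Slc7a1 and Slc7a5), and their median change was 0.30 on the log2 scale. Of 17 other ATF4 targets tested, 2 were higher, 5 were lower and 10 were not called, with a median of -0.05. The 5 with the smallest p were Trib3, a pseudokinase gene (log2 fold change -1.62, SE 0.07), Ddit4, an inhibitor of TORC1 (-1.09, SE 0.09), Cth, which makes cysteine from cystathionine (0.71, SE 0.06), Atf3, a stress-induced transcription factor (-1.60, SE 0.14), and Atf5, a relative of ATF4 (-0.36, SE 0.05). Genes were called in both directions within each list, and the difference between the lists was not tested.

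**Figure D4:**
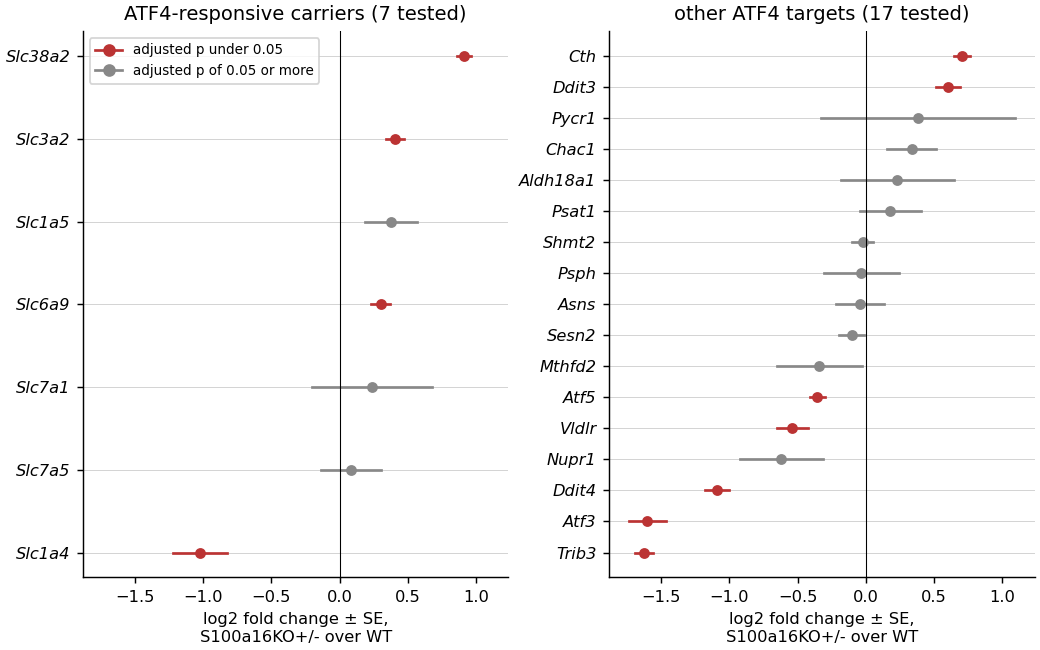
Log2 fold change with SE, S100a16KO+/- over WT, of the 7 tested ATF4-responsive carriers (left) and the 17 other tested ATF4 target genes (right). Red marks an adjusted p under 0.05. Slc38a2 lies farthest to the right among the carriers, and Trib3 and Atf3 lie farthest to the left among the other targets.

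The 9 carriers chosen for their place in hepatocytes were all tested. Of these, 4 were higher (Slc1a2, Slc7a2, Slc38a2 and Slc38a4), 1 was lower (Slc6a6) and 4 were not called, with a median of 0.13. Amino acid carriers outside these families moved in both directions, with 6 of 12 tested genes higher and 4 lower (against 11.6% and 11.2% of all tested genes) and a median of 0.08. Slc16a10 (TAT1), which exports aromatic amino acids, was higher by 0.57 on the log2 scale (SE 0.06, adjusted p = 6.59e-06). Mfsd12, which is needed for cystine uptake into lysosomes and melanosomes, was higher by 0.71 (SE 0.10, adjusted p = 0.00014), and Slc25a22, a mitochondrial glutamate carrier, by 0.46 (SE 0.05, adjusted p = 2.83e-05). Slc17a8, a vesicular glutamate carrier, fell by 0.58 (SE 0.06, adjusted p = 6.76e-06), and Slc25a44, a mitochondrial carrier of branched-chain amino acids, fell by 0.45 (SE 0.06, adjusted p = 4.94e-05).

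Genes of the TORC1 kinase and of amino acid sensing upstream of it, together with the eIF2alpha kinase gene Eif2ak4, were counted in the same way. Of 24 tested, 1 was higher (Sesn1, log2 fold change 0.52, SE 0.11), 2 were lower (Fnip2, -0.33, SE 0.06, and Flcn, -0.25, SE 0.09) and 21 were not called, with a median of -0.08, where 22.8% of all tested genes were called. Of 3 tested proteins that bind or regulate carriers, 1 was higher, the ubiquitin ligase gene Nedd4l, by 0.58 (SE 0.07, adjusted p = 3.47e-05).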

How the data were processed

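Reads were processed by the authors. The submitters' processing notes name cutadapt 1.9, HISAT2 2.0.4, UMI-tools, StringTie 1.3.4d, DESeq2, edgeR and the mm10 build, and the order of the steps and any strand setting are not given in the sources used here. The authors deposited estimated counts as whole numbers, not scaled for library size. From the excess of genes at 4 counts, and with no statement of how the counts were made, a fragment was taken to be worth about 4 counts. They also deposited FPKM values, scaled by them for library size and transcript length.

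The estimated counts were fitted with edgeR 4.0.16 in R 4.3.3 (TMM scaling, filterByExpr with a minimum of 10 counts, robust quasi-likelihood fit, no covariate) over all 6 libraries, and p values were adjusted over 15957 genes. DESeq2 1.42.0 and limma 3.58.1 on log2(FPKM + 1) and log2(FPKM + 0.1) were alternatives. The steps were tested on simulated counts drawn with a fixed dispersion and without the excess at 4 counts. That run does not show how the steps behave on counts with this excess. The standard error was taken from the F statistic. A count of 0 allows up to 3 fragments, and intervals of fragment ratios cover counting error only.

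The members, gene lists and tests were chosen with earlier results of these data known. Named were the ATF4-responsive and hepatocyte carriers, Slc15a2, every called member, the 10 most abundant members and the heavy chains, with up to 5 genes of each other list by smallest p. Members outside this rule, among them Slc15a4, Slc38a1, Slc38a6, Slc7a6, Slc7a7, Slc7a8, Slc15a5 and Slc7a6os, were named after their values or sequences were seen. Promoters were searched for TGATGNAA on both strands.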

Additional observations from a re-analysis of the deposited data

How the results depend on the processing

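In all, 12 of the 18 called members were called under each of the 15 alternatives (Slc15a2, Slc1a2, Slc1a4, Slc36a1, Slc38a10, Slc38a2, Slc3a1, Slc3a2, Slc43a3, Slc6a6, Slc6a9 and Slc7a2), and 6 were lost under at least 1 (Slc15a3, Slc38a4, Slc38a7, Slc43a2, Slc6a21 and Slc6a4). The adjusted p of DESeq2 for Slc6a4 was not available. The number of genes called among all tested was 3643, and it was 2419 with limma on log2(FPKM + 1), 2365 with limma on log2(FPKM + 0.1), 721 under the criterion of p under 0.05 with a fold change of at least 2, and 2734 to 3302 on leaving out 1 library. That criterion left 2 members higher and 3 lower in place of 12 and 6. Log2(FPKM + 1) shrinks the values of low genes by construction: Slc15a2 was at -0.38 (adjusted p = 0.0013) and Slc1a4 at -0.36 there. Some members that were not called changed sign on leaving out 1 library: Slc38a3 reached 0.0029, Slc6a12 ranged from -0.054 to 0.12 (-0.01 without S100a16KO+/- replicate 2), Slc7a1 from -0.10 to 0.50 (-0.0040 without S100a16KO+/- replicate 1) and Slc7a5 from -0.12 to 0.23.

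The genotypes share replicate numbers in the labels. Deviations of same-numbered libraries from their group means correlated at -0.05, -0.02 and 0.05, and not every library correlated best with its own number, so the numbers were not taken to pair the samples. With the replicate block, 3082 genes and 14 members were called, without Slc38a4, Slc38a7, Slc6a21 and Slc6a4.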
